A study of Mus musculus with 10 samples.

Results

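Expression was read in mouse embryonic stem (ES) cells for 7 genes, Dsc3, Sult1d1, Krt78, Gpr35, Ppp1r3a, Fmr1nb and Osta, which are best known from epithelium, intestine and kidney, muscle and testis. They were chosen by their Cy5 over Cy3 ratio, which was high on arrays of Tet1/Tet2 double knockout (DKO) over wild-type (WT) cells. They were then followed on arrays of other genotypes with the same dye order. Every probe that carries one of these gene names was taken, 14 probes of 39429 on the array. Of these, 9 probes met the rule for a test, at least 1 for each gene, among 20576 genes tested. The working name for the group, silent tissue genes detected in double knockout cells, held only in part. The 5 genes Dsc3, Sult1d1, Krt78, Gpr35 and Ppp1r3a each had 1 probe with Cy5 signal above background on all 10 arrays, whatever the genotype of the Cy5 sample, and Fmr1nb and Osta were detected in WT cells.

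The study hybridised RNA of 2 lines to each of 10 two-colour 60-base oligonucleotide arrays. All lines came from mice of a mixed C57/BL/6 background, grew with LIF on irradiated feeder fibroblasts, and were freed of feeders by preplating before RNA was taken. The male DKO lines 51 and 61 were set against the male WT lines 6 and 92, and the female DKO lines 60 and 59 against the female WT lines 7 and 94. This gave 4 pairs of lines on 6 arrays, with DKO in Cy5 and WT in Cy3. On 2 further arrays the male T2KO line 16, which lacks Tet2, was in Cy5 and the male T1KO line 65, which lacks Tet1, in Cy3. The last 2 arrays held the male T1KO line 99 in Cy3 and, in Cy5, a sample that the submitters set aside for a wrong genotype. There was 1 T2KO line, no array had the dyes exchanged, and no array compared 2 WT lines. Genotype and dye therefore cannot be told apart in any ratio given here. Total RNA came from a culture, so that a change in the share of some cells and a change in RNA per cell cannot be told apart either.

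The Tet enzymes oxidise the methyl group of 5-methylcytosine in DNA to 5-hydroxymethylcytosine and further products, and Tet1 and Tet2 are the family members that the mutant lines lack. Genes of differentiated tissues are mostly unexpressed in ES cells, and for many germ-line genes DNA methylation of the promoter is part of that silence. Desmocollin 3 (Dsc3) is a desmosomal cadherin of stratified epithelium, and Krt78 is a type II keratin, one of the filament proteins of epithelial cells. Sult1d1 is a cytosolic sulfotransferase, and Gpr35 a G protein-coupled receptor of gut and immune cells. Ppp1r3a brings protein phosphatase 1 to glycogen in striated muscle. Fmr1nb is an X-linked neighbour of Fmr1 with testis expression, and Osta, now named Slc51a, is the alpha subunit of the heteromeric transporter that exports bile acids from enterocytes of the ileum.

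The knocked-out genes behaved as labelled. Tet1 was lower in DKO than in WT by a log2 ratio of -2.11 and higher in T2KO than in T1KO by 1.99, and the same ratios of Tet2 were -2.10 and -1.69. Tet3, the remaining family member, was detected with at least 1 probe on all 10 arrays in both dyes. Of 8 Tet enzymes, DNA methyltransferases and partners, all were tested, 0 rose and 3 fell in DKO over WT. Over all genes 2.85% rose and 1.72% fell. The 3 were Tet1, Tet2 and Uhrf1, the last at -0.40 (limma adjusted p = 0.0291). Between 55.2% and 61.5% of the 43020 gene spots per array were well above background in Cy3 and between 62.6% and 69% in Cy5, by the scanner software's own flag, and 0 were saturated. All 10 ES cell markers were detected on all 10 arrays in both dyes, with a mean log2 level of 14.57 to 14.94 in the DKO lines and 14.71 to 14.88 in the WT lines. Of 12 markers of the feeder fibroblasts, all were tested, 0 passed limma's threshold in DKO over WT, and their mean log2 level ran from 11.55 to 12.19 in DKO and from 11.29 to 12.21 in WT lines.

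Krt78, Gpr35, Fmr1nb and Osta are shown by sequence because their probes carry the contrast between genes read by 1 probe and genes read by both. The Krt78 probes lie on chromosome 15, on the minus strand of mm9, to which the array was designed, at chr15:101776599-101776658 and chr15:101776589-101776648. The second is shifted by 10 bases along the same transcript and has 50 of its 60 bases in common with the first. Capitals mark the shared 50 bases, each probe is written 5′ to 3′ in the sense of the transcript, and the annotation of exons on mm9 was not used here.
Krt78 A_55_P2054563: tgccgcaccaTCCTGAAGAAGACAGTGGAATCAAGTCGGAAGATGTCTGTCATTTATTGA
Krt78 A_52_P311168: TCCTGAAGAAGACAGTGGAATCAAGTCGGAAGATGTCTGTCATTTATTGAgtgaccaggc

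The Gpr35 probes shown here lie 529 bases apart on the plus strand of chromosome 1, at chr1:94879968-94880027 and chr1:94879439-94879498 (mm9). Capitals mark G and C, and both probes have 33 of them, a GC content of 55%.
Gpr35 A_55_P1973491: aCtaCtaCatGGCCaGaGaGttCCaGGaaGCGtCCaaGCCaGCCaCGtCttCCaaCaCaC
Gpr35 A_55_P2039681: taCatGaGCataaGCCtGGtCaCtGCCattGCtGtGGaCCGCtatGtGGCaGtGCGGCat

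The Fmr1nb probes lie on the plus strand of the X chromosome, at chrX:66056806-66056865 and chrX:66022208-66022267 (mm9), and the Osta probe shown lies on the minus strand at chr16:32475871-32475930. Capitals again mark G and C.
Fmr1nb A_55_P2115318: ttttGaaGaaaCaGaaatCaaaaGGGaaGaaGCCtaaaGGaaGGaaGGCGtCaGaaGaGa
Fmr1nb A_55_P2115315: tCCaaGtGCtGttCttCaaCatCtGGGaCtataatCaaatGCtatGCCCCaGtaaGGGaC
Osta A_52_P229981: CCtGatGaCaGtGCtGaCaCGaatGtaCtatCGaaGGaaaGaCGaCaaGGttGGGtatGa

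The remaining probes are named by position on mm9. The Dsc3 probes lie on chromosome 18 at 20124142 to 20124201 and, across a gap, at 20122029 to 20124146, so that they overlap at one end. Those of Sult1d1 lie on chromosome 5 at 87983671 to 87983730 and 87985008 to 87985067. The third Gpr35 probe lies on chromosome 1 at 94881911 to 94881970, the Ppp1r3a probe on chromosome 6 at 14664312 to 14664371, and the brighter Osta probe on chromosome 16 at 32475636 to 32475695. The 5 probes with signal in Cy5 alone ranged widely in base composition. GC content was 45% for Dsc3 and Krt78, 55% for Gpr35, 35% for Ppp1r3a and 21.7% for Sult1d1, against a median of 41.7% over all probes. The longest run of bases that any 2 of the 5 shared, on either strand, was 5 to 7 bases.

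In the spot signals before any correction, desmocollin 3 was dark in Cy3 and lit in Cy5. Its probe A_55_P1999483 read 111 to 135 scanner units in the Cy3 channel of the 6 DKO/WT arrays, with a median of 126. In Cy5 the same spots read 197 at the lowest, 203.5 at the median and 240 at the highest. Both T2KO readings, 171 and 156, and both readings of the wrong-genotype sample, 232 and 151, were likewise well above background. No WT, T1KO 65 or T1KO 99 reading in Cy3 was, and 9 of the 10 Cy3 readings lay below the median of the 153 negative control spots of their array.

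For the sulfotransferase gene Sult1d1, probe A_55_P2181538 read 118 to 154 in WT, with a median of 144.5, and 153, 259 and 333 as the lowest, median and highest DKO reading. The T2KO readings were 187 and 223 and those of the wrong-genotype sample 290 and 260, inside the DKO range. Keratin 78 probe A_55_P2054563 read 125 to 167 in WT, with a median of 151.5, and 197, 245.5 and 286 in DKO. Its T2KO readings were 188 and 215 and those of the wrong-genotype sample 167 and 168, so that these last lay below every DKO reading.

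For the receptor gene Gpr35, probe A_55_P1973491 read 144 to 174 in WT, with a median of 155, and 163, 215.5 and 276 as lowest, median and highest in DKO. The T2KO readings of 174 and 199 lay inside the DKO range, and the wrong-genotype sample gave both 291, the highest Cy5 reading of this probe, and 180. The muscle gene Ppp1r3a has 1 probe on the array, which read 113 to 166 in WT, with a median of 150, and 144, 174 and 224 in DKO. Its DKO and WT readings overlapped in scanner units, as did those of Sult1d1 and Gpr35. The T2KO readings of Ppp1r3a, 160 and 149, overlapped with its T1KO 65 readings of 157 and 175. The same held for Dsc3, with T1KO 65 readings of 154 and 169, and for Gpr35, with 199 and 192. The dyes differ in their background, since negative control spots had a median of 142 to 166 in Cy3 and 58 to 65 in Cy5.

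Measured against the controls of its own dye, each of the 5 probes was above the 99th percentile of the negative controls in Cy5 on 10 of 10 arrays, a percentile that ran from 102 to 151. In Cy3 the same was true on 0 arrays for Dsc3, Sult1d1 and Ppp1r3a, on 1 for Krt78 and on 3 for Gpr35. The scanner software called all 5 well above background in Cy5 on all 10 arrays and in Cy3 on 0 of 10.

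**Figure D1:**
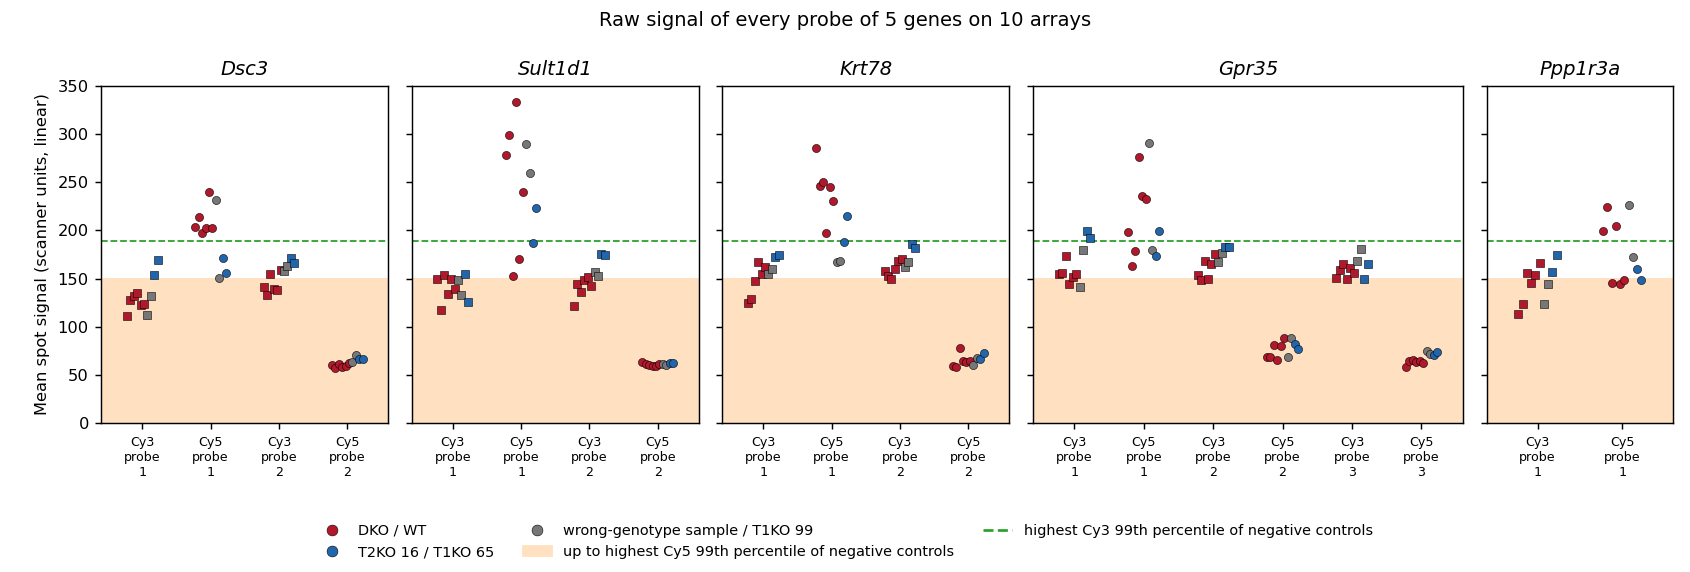
Mean spot signal in scanner units (linear axis) of every probe of 5 genes on 10 arrays, with Cy3 readings as squares and Cy5 readings as circles, coloured by the lines on the array. In each panel probe 1 has Cy5 readings of 144 or more under every genotype, while the Cy5 readings of the other probes of Dsc3, Sult1d1, Krt78 and Gpr35 stay at 88 or below. The shaded area and the dashed line reach the highest 99th percentile of the negative control spots in Cy5 (151) and Cy3 (189).

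The other probes of these genes were not well above background in either dye. The second Dsc3 probe read 57 to 71 in Cy5 over the 10 arrays, the second Sult1d1 probe 59 to 64, and the other Gpr35 probes 66 to 88 and 58 to 75. The second Krt78 probe, which shares 50 of 60 bases with the lit one, read 58 to 78. All 5 were well above background on 0 of 10 arrays in Cy3 and on 0 of 10 in Cy5, and none was above the 99th percentile of the negative controls in Cy5 on any array. Thus in 4 of the 4 dark genes with several probes, 1 probe carried the Cy5 signal and no other did. Ppp1r3a has no other probe to set beside it.

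Of all 39429 probes, 577, or 1.46%, were in Cy5 on all 6 DKO arrays and in Cy3 on 0 of the 6 WT arrays, and 5 of the 14 probes followed here were among them. The mirror pattern, Cy3 on all 6 WT arrays and Cy5 on 0, occurred for 0 probes. On the T2KO/T1KO arrays 2049 probes (5.2%) were in Cy5 alone and 42 (0.107%) in Cy3 alone. The excess of probes seen in Cy5 alone therefore appeared with both pairs of genotypes, and the part of the dye in it was not tested, since no dyes were exchanged. Of the 577 probes, 360 (62.4%) were in Cy5 on all 10 arrays, and 308 (53.4%) were so with Cy3 on 0 of 10, as the 5 probes were. For 188 of the 577 the gene had another probe, and for 80 of those (42.6%) no other probe was in Cy5 on all 6 DKO arrays. The genes were chosen for a high ratio of DKO over WT, which sets the place of the 5 probes in this set. As a description, the median log2 ratio of the 577 was 0.22 and the 90th percentile 0.91, and 22 of the 577 were at least as high as the lowest of the 5.

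**Figure D2:**
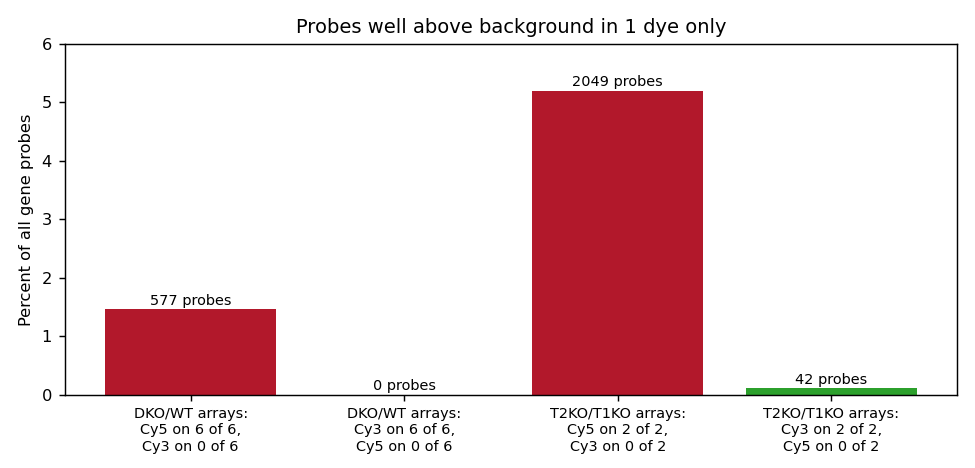
Percent of the 39429 gene probes that were well above background in 1 dye on all arrays of a comparison and in the other dye on none. Red bars are Cy5 alone (577 probes for DKO/WT, 2049 for T2KO/T1KO) and green bars Cy3 alone (0 and 42 probes). Cy5 alone is the common pattern in both comparisons.

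After background correction and normalization, the log2 ratio of DKO over WT was positive for all 7 genes in all 4 pairs. These ratios chose the genes and are given as a description. For Dsc3 it was 2.01 in the male pair 51/6, 1.80 in the male pair 61/92, 1.93 in the female pair 60/7 and 2.04 in the female pair 59/94, a mean of 1.95 ± 0.106 (SD, n = 4). The pairs of Dsc3 lay close together, while those of the next gene spread over more than 1 log2 unit. Sult1d1 gave 2.01, 1.07, 2.45 and 1.52 in the same order, a mean of 1.76 ± 0.596 (SD, n = 4). Krt78 gave 1.92, 1.69, 1.07 and 1.51, a mean of 1.55 ± 0.361 (SD, n = 4). Pair 60/7 was thus the highest for Sult1d1 and the lowest for Krt78.

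Gpr35 gave 0.95, 0.83, 2.00 and 1.52, a mean of 1.33 ± 0.543 (SD, n = 4). Ppp1r3a gave 2.06, 0.86, 1.59 and 0.87, a mean of 1.35 ± 0.585 (SD, n = 4), and its high pairs were 1 male and 1 female. For these 5 genes the WT channel gave only a bound, because no array had it well above background. As a bound, the mean of the DKO lines was set against the mean over WT lines of the higher of the probe's own level and the lowest level that was well above background in that channel. By this rule DKO was 2.35-fold WT for Dsc3, 2.54-fold for Sult1d1, 2.42-fold for Krt78, 2.31-fold for Gpr35 and 1.95-fold for Ppp1r3a. Each of these values sets Cy5 against Cy3. They are no guaranteed minimum, since the lowest level well above background is not a detection limit. With normexp fitted on all spots the log2 ratio of Gpr35 was 1.11, below its log2 value of 1.21 by this rule. The ratios of the other genes stayed above theirs in that setting.

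The genes detected in both dyes had 2 probes each that ran together. Fmr1nb gave 0.69, 2.03, 0.94 and 1.47 with its brighter probe, a mean of 1.28 ± 0.593 (SD, n = 4), and 0.44, 1.65, 0.65 and 1.22 with the other, a mean of 0.99 ± 0.549 (SD, n = 4). Both probes put the pairs in the same order, with 61/92 highest and 51/6 lowest. Osta gave 2.09, 1.11, 1.21 and 1.76 with its brighter probe, a mean of 1.54 ± 0.464 (SD, n = 4), and 1.34, 0.59, 0.84 and 1.29 with the other, a mean of 1.01 ± 0.363 (SD, n = 4). Here 51/6 was highest and 61/92 lowest with both probes, while for Fmr1nb these pairs stood the other way round. The dark probes of the other genes gave mean ratios of -0.07 for Dsc3, 0.05 for Sult1d1, -0.19 for Krt78, and 0.01 and -0.19 for Gpr35. Averaging all probes of a gene therefore took Dsc3 from 1.95 to 0.94, Sult1d1 to 0.90, Krt78 to 0.68 and Gpr35 to 0.38.

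**Figure D3:**
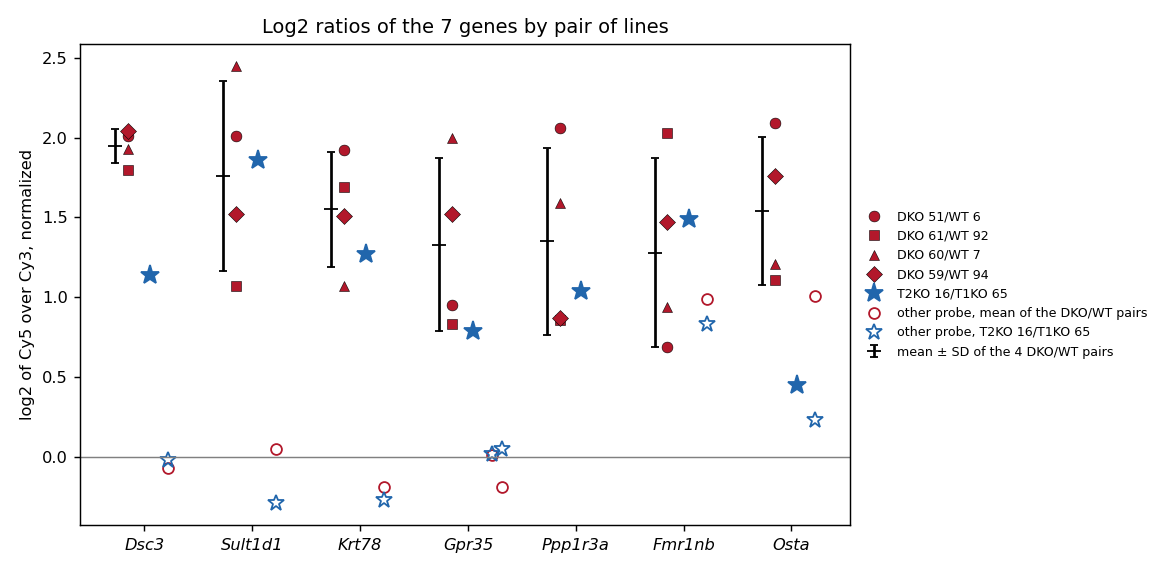
Normalized log2 ratio of Cy5 over Cy3 for the probe that represents each of the 7 genes, in the 4 DKO/WT pairs (red) with their mean ± SD (black) and in T2KO 16/T1KO 65 (filled blue star), and for the genes' other probes (open symbols). All filled symbols lie above 0, and the other probes of Dsc3, Sult1d1, Krt78 and Gpr35 lie between -0.29 and 0.05, while those of Fmr1nb and Osta lie between 0.23 and 1.01.

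In the limma fit over all 20576 genes, 2.85% passed an adjusted p of 0.05 as rises in DKO over WT and 1.72% as falls, and 6 of the 7 genes were among the rises, all but Fmr1nb. Since that contrast chose the genes, nothing is read from that count. It also rested on all pairs being kept, because with any 1 of the 4 pairs left out 0 of 20576 genes passed, while 3605 to 4864 had an unadjusted p under 0.05. The median log2 ratio of the 7 genes was 1.54, against 0.02 over all genes. By the probe that represents each gene, the levels of all DKO lines were above those of all WT lines for 6 of the 7 genes. The exception was Fmr1nb, and the share over all genes was 7.55%. The choice of the genes also sets this count, and none of the genes' other probes, the second Osta probe included, showed that separation.

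The arrays of T2KO 16 over T1KO 65 had the same dye order, and the choice rested on the DKO/WT ratios. They ask how the genes read where Tet1 is present and Tet2 absent in the Cy5 sample, and Tet1 absent and Tet2 present in the Cy3 sample. In that comparison all 7 genes were again higher in Cy5, with a median log2 ratio of 1.14 against 0.01 over all genes, and 0 of 7 passed the adjusted threshold, as 0% of all genes did. At an unadjusted p under 0.05 by limma, 5 of the 7 were rises, against 6.13% of all genes. Since 5 of the 7 genes met the rule for a test through Cy5 alone, whatever the genotype, a positive ratio was largely fixed for them, and nothing is read from these counts and medians. The fit held 1 pair of lines for this comparison and took its spread from the DKO/WT pairs on which the genes were chosen, so that intervals and p-values are not independent of the choice. The smallest adjusted p of any gene was 0.248, with 2690 genes at an unadjusted p under 0.05, and 555 genes but none of the 7 passed when all arrays were kept with the pair as a random block.

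Dsc3 read 1.36 and 0.93 on the 2 arrays, and limma gave a log2 ratio of 1.14 (95% interval 0.76 to 1.53, adjusted p = 0.263). Sult1d1 read 1.49 and 2.23, with 1.86 from limma (0.60 to 3.12, adjusted p = 0.299). Krt78 read 1.19 and 1.35, with 1.27 (0.72 to 1.83, adjusted p = 0.263). The 2 arrays repeat 1 pair of lines, and a positive ratio was largely fixed for these 3 genes, so that nothing is read from its sign. Gpr35 read 0.56 and 1.02, with 0.79 from limma (0.23 to 1.35, adjusted p = 0.308), and Ppp1r3a 1.31 and 0.76, with 1.04 (-0.30 to 2.37, adjusted p = 0.459). The T1KO 65 channel of these 5 genes was not well above background on either array, and no bound is given. The lowest level well above background in that channel was below the probes' own levels, so that the rule used for DKO over WT returned the fitted ratio itself.

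Fmr1nb read 1.52 and 1.47, with 1.49 from limma (0.12 to 2.86, adjusted p = 0.352), and 0.83 with its other probe. Osta read 0.38 and 0.52, with 0.45 (-0.64 to 1.54, adjusted p = 0.675), and 0.23 with its other probe. Of these genes, which were read in both dyes, Fmr1nb had a T2KO over T1KO ratio inside the range of its DKO/WT pairs, and Osta had one below that range, 0.45 against a lowest pair of 1.11. The ratios of the 5 dark genes were not placed in such a range, because their Cy3 readings were not well above background. The ratios of all 7 genes depended on the background correction. With normexp fitted on all spots the T2KO over T1KO ratio was 0.03 for Dsc3 and between 0.02 and 0.05 for Sult1d1, Krt78, Gpr35 and Ppp1r3a. In that setting the genes read in both dyes had lower values too, Osta from 0.45 to 0.04 and Fmr1nb from 1.49 to 0.44. No size of this change over all genes is given, and it is not read as particular to the 7 genes. In log ratios as the scanner software wrote them, Sult1d1 reached 3.84.

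Lines read in the same dye can be set side by side without the dye. The T2KO and T1KO arrays lay on a slide of their own, apart from those of the male and the female DKO/WT pairs, so that slide and genotype cannot be told apart in these levels. In Cy5 the log2 level of Dsc3 was 7.92 in DKO 51, 7.77 in DKO 61, 7.82 in DKO 60, 7.86 in DKO 59 and 7.47 in T2KO 16. T2KO was the lowest of the 5 lines for Dsc3, and also for Gpr35 (7.59 against 7.61 to 8.12 in DKO) and Osta (8.83 against 8.87 to 9.80). It lay within the DKO range for Sult1d1 (7.79 against 7.42 to 8.39), Krt78 (7.76 against 7.65 to 8.19), Ppp1r3a (7.39 against 7.27 to 7.92) and Fmr1nb (11.07 against 10.97 to 12.33). No share over all genes is given for these positions, and nothing is read from them. With 1 T2KO line, no spread between T2KO lines is known.

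In Cy3 the 2 T1KO lines can be set beside the 4 WT lines. Dsc3 read 5.82 to 5.96 in WT and 5.65 and 6.33 in T1KO, and Sult1d1 5.95 to 6.34 in WT and 5.93 and 6.06 in T1KO. Krt78, Gpr35 and Ppp1r3a had T1KO levels of 6.28 to 6.49, 6.31 to 6.80 and 5.88 to 6.35, against 6.26 to 6.57, 6.12 to 6.78 and 5.87 to 6.48 in WT. All of these are levels of probes not well above background, and they show no order among lines. Osta with its brighter probe had both T1KO lines above all 4 WT lines. How often this order occurs over all genes was not determined, so that it is a description only.

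Osta was detected in every line with its brighter probe. Its log2 level was 7.71 in WT 6, 7.76 in WT 92, 7.91 in WT 94 and 8.13 in WT 7, then 8.38 in T1KO 65 and 8.43 in T1KO 99, then 8.83 in T2KO 16, 8.87 in DKO 61, 9.34 in DKO 60, 9.67 in DKO 59 and 9.80 in DKO 51. The lines thus ran in the order WT, T1KO, T2KO and DKO with no overlap between genotypes by this probe. T1KO and T2KO were read in different dyes, and their arrays lay on a slide of their own. The share of all genes with this order was not determined, so that the order is a description only. T2KO 16 was 0.04 below DKO 61, where the DKO lines spread over 0.93. T1KO 65 was 0.25 above WT 7, where the WT lines spread over 0.42 while the T1KO lines lay close together. The step from T1KO 99 to T2KO 16 was larger than the difference of the T1KO lines, and it crosses from Cy3 to Cy5. The second probe did not keep that order, since WT 7 at 7.76 was above both T1KO lines at 7.51 and above T2KO 16 at 7.74. It was also above DKO 61 at 7.73, so that with this probe WT and DKO lines overlapped.

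Fmr1nb was detected in every line as well, and its levels are those of the brighter probe unless stated. Its log2 level was 9.47 in T1KO 99, 9.55 in WT 92, 9.58 in T1KO 65, 10.28 in WT 6, 10.48 in WT 94, 10.97 in DKO 51, 11.07 in T2KO 16, 11.39 in WT 7, 11.58 in DKO 61, 11.95 in DKO 59 and 12.33 in DKO 60. The T1KO lines were level with the lower of the male WT lines, and WT 7 overlapped with DKO 51 and T2KO 16. With that probe this X-linked gene was higher in both female WT lines than in both male ones. It was also higher in both female DKO lines than in both male ones. With the other probe the order held for the DKO lines but not for WT, where female WT 94 at 7.48 was below male WT 6 at 7.68. Male and female arrays lay on different slides, so that sex and slide cannot be told apart. The mean DKO over WT ratio was 1.36 in male pairs (0.69 and 2.03) and 1.20 in female pairs (0.94 and 1.47). Each array held lines of 1 sex, so that these ratios do not measure a difference in level between sexes.

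**Figure D4:**
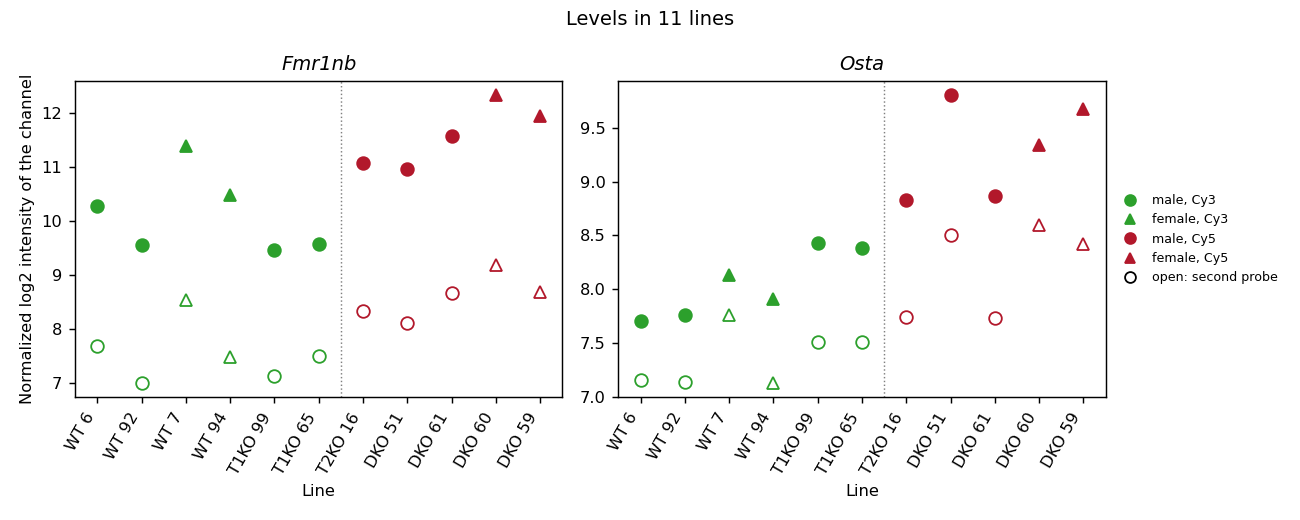
Normalized log2 intensity of Fmr1nb and Osta in 11 lines, with lines read in Cy3 in green and in Cy5 in red, males as circles, females as triangles and the genes' second probe as open symbols. The brighter Osta probe reads 7.71 to 8.13 in WT, 8.38 and 8.43 in T1KO, 8.83 in T2KO and 8.87 to 9.80 in DKO, while Fmr1nb in WT 7 (11.39) reaches into the DKO range.

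By sex, the mean ratio of DKO over WT was 1.60 in male and 1.48 in female pairs for Osta. For the 5 dark genes the Cy3 reading gives only a bound, so that levels in Cy5 are given in place of ratios. Gpr35 read 7.65 and 7.61 in the male DKO lines and 8.12 and 7.89 in the female ones. In Cy3 its readings, none well above background, were 6.71 and 6.78 in male WT and 6.12 and 6.37 in female WT lines. For Gpr35 the female pairs thus had both the higher Cy5 and the lower Cy3 readings. Krt78 had the opposite order, with 8.19 and 8.07 in male and 7.65 and 7.91 in female DKO lines. Its Cy3 readings, also not well above background, were 6.26 and 6.37 in male and 6.57 and 6.41 in female WT lines. For Dsc3, Sult1d1 and Ppp1r3a the Cy5 levels of male and female DKO lines overlapped. With 2 pairs of each sex on a slide of their own, differences between sexes were not tested.

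The wrong-genotype sample was read in Cy5 and gives the 5 probes without a stated genotype. Over T1KO 99 its log2 ratio was 2.30 and 1.71 for Dsc3, 1.82 and 2.22 for Sult1d1, 1.13 and 1.05 for Krt78, 2.15 and 0.79 for Gpr35 and 2.11 and 1.5 for Ppp1r3a. The Cy3 side of these ratios was not well above background. Fmr1nb, at 2.94 and 2.93, was higher in this sample than in any pair, and Osta, at 1.25 and 1.27, was within the DKO/WT range.

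Genes of the same families and pathways were taken from lists made with earlier results of these data known. Each of these family and pathway lists held 0 to 2 genes that passed, where 2.85% of all genes rose and 1.72% fell. In lists of this length such counts are a description only. Of 15 desmosome genes, 9 were tested and 0 passed limma's threshold in DKO over WT, with a median log2 ratio of 0.06, and 6, among them Dsc1 and Dsg3, were detected on no array. Dsc2, the desmocollin of simple epithelium and the nearest tested gene to Dsc3, had a ratio of 0.11 and was detected on all arrays in both dyes. Of 14 cytosolic sulfotransferases and partners, 6 were tested and 0 passed, with a median of 0.13. Of 22 type II keratins, 11 were tested, 1 rose and 0 fell. The 1 was Krt6b, a keratin of wounded epidermis, at 1.09 (SE 0.162, limma adjusted p = 0.0372), and its probe was also in Cy5 on 10 of 10 arrays and in Cy3 on 0, with a T2KO over T1KO ratio of 1.27.

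Of 15 genes around Gpr35, which include related receptors and G protein subunits, 8 were tested and 1 rose, the inhibitory G protein subunit gene Gnai1 at 0.48 (adjusted p = 0.0389). Of 18 genes of glycogen targeting and glycogen enzymes, 17 were tested. The liver-type targeting subunit Ppp1r3b rose by 0.56 (adjusted p = 0.0215) and Ppp1ca, a catalytic subunit of protein phosphatase 1, had a ratio of -0.53 (adjusted p = 0.0233), while the median was 0.05. Both were detected in both dyes on all arrays. Of 14 bile acid transport genes 6 were tested and 0 passed, with a median of -0.06. Ostb, the partner subunit that Osta needs for transport, was detected on no array with its 1 probe.

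Of 22 X-linked testis genes, 16 were tested, all with a positive ratio and a median of 0.55, and 1 rose, Xlr4b at 2.41 (adjusted p = 0.0415). Its T2KO over T1KO ratio was 3.23, and near-identical copies of Xlr genes can share a probe. Of 18 germ-line genes, 16 were tested with a median of 0.38 and 2 rose, Dazl, an RNA-binding protein of germ cells, at 1.26 (adjusted p = 0.0216) and the piRNA pathway helicase gene Mov10l1 at 0.66 (adjusted p = 0.0444). In T2KO over T1KO 0 genes of any of these lists passed, as 0 of all 20576 did, and the calls in DKO over WT named here were lost, as all others were, when any pair was left out.

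Among markers of the tissues that the 7 genes are known from, 1 gene passed, where 2.85% of all genes rose, and nothing is read from that count. Of 11 markers of stratified epithelium, 7 were tested and 0 passed. With at least 1 probe, 6 of them, Krt14, Krt10, Trp63, Sfn, Lor and Krt13, were detected on all 10 arrays in both dyes, while Krt1, Ivl, Dsg3 and Krt4 were detected on no array. The mean log2 level of the tested markers was 8.76 to 9.07 in DKO and 8.78 to 9.04 in WT lines. Of 11 intestine and kidney markers 7 were tested and 0 passed. On all 10 arrays 5 were detected in Cy3 and 7 in Cy5, 4 were detected on no array (Cdh16, Umod, Slc12a1 and Slc10a2), and the mean log2 level was 7.59 to 7.66 in DKO and 7.49 to 7.96 in WT. Of 10 skeletal muscle markers 6 were tested, all with a negative ratio and 0 past the threshold. On all 10 arrays 5 were detected in Cy3 and 5 in Cy5, Ckm and Myh1 were detected on no array, and the mean log2 level was 7.69 to 8.28 in DKO and 8 to 8.77 in WT. Of 11 testis and germ line markers 10 were tested and Dazl alone passed, with mean log2 levels of 9.23 to 9.63 in DKO and 8.84 to 9.18 in WT. The part of germ-line marker expression in the Fmr1nb ratio was not tested.

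The nearest tested genes on either side of each of the 7, by the design's coordinates, did not pass in DKO over WT, and their smallest adjusted p by limma was 0.0769. Fmr1, 85.9 kb from Fmr1nb, had a ratio of 0.26, and Gm6812 on the other side 0.09. Pcyt1a, 3.54 kb from Osta, had -0.33, and Zdhhc19 -0.05. Krt79, 16.8 kb from Krt78, had 0.24 and C77847 0.02, and around Gpr35 Capn10 had 0.01 and Kif1a -0.07. Around Sult1d1, Ppp1r3a and Dsc3 the neighbours, 2 of which have no gene symbol, had ratios from 0.07 to 0.25.

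Over the 11 lines, the gene profiles most like the mean profile of the 7 genes were A530001N23Rik (r = 0.989), the unnamed probe A_55_P2028069 (r = 0.988), Gm14129 (r = 0.988), Fam219a (r = 0.988) and the unnamed probe A_55_P2142116 (r = 0.986). These are Pearson correlations over lines that share arrays and dyes. The first 3 were in Cy5 on 10 of 10 arrays and in Cy3 on 0, as the 5 dark genes were. Their DKO over WT ratios were 0.71, 1.09 and 0.88 and their T2KO over T1KO ratios 0.49, 0.73 and 0.82. Fam219a and A_55_P2142116 were detected in both dyes on all arrays, with DKO over WT ratios of 0.52 and 0.51.

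Promoters were matched by symbol in the RefSeq table of GRCm38.p6 for 6 of the 7 genes. The CpG dinucleotide, which carries the methyl group that Tet enzymes oxidise, was counted as the letters CG, which read the same on both strands. Over the 300 bases around the start site the count was 9 for Fmr1nb, 8 for Krt78, 3 for Sult1d1 and Osta, 2 for Ppp1r3a, and 0 and 6 for the 2 starts of Gpr35. Over all 32851 promoters in the table the median was 7 and the 90th percentile 31, and 94.6% held at least 1. The part before the start of Fmr1nb (chrX:68761589-68761838, plus strand, GRCm38.p6) and of Osta (chr16:32487880-32488129, minus strand) is shown for the genes that were read by both probes, with CG in capitals, 7 and 3 times. The arrays did not measure methylation.
Fmr1nb: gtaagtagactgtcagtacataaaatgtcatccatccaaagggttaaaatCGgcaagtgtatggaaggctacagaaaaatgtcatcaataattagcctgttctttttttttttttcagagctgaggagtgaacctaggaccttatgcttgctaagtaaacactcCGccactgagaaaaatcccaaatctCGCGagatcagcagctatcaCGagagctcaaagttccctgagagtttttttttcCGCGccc
Osta: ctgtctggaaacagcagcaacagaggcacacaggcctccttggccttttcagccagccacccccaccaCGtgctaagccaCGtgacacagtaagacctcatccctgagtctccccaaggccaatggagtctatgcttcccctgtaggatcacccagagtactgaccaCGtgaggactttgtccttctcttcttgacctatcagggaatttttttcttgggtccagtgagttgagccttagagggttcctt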

How the data were processed

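RNA of 11 mouse ES cell lines was read on 10 arrays, with 200 ng of total RNA in each labelling reaction, per the labels. The scanner files hold mean spot intensity and local background intensity as deposited, read by Agilent Feature Extraction 10.1.1.1, per the file headers, and a log10 ratio of processed Cy5 over Cy3 intensity that the same software wrote, per the file headers. The authors' deposited value table lies near a log2 scale, Cy5 over Cy3, by comparison with the scanner ratios (slope 0.835 to 0.882 over probes with a log2 level above 9). How it was normalized or centred is not stated by the sources, and its columns have medians of 0.00178 to 0.00752. It has 1 row for each of 31539 gene names, and its values follow the mean of a gene's probes (r = 0.914 to 0.988) more closely than the probe that it lists (r = 0.772 to 0.878).

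Background was corrected with normexp (offset 50), with gene spots that fell below their local background (71 to 122 per array) left out of its fit, ratios were normalized by loess with control spots at no weight, and channels by Aquantile, in limma 3.58.1 on R 4.3.3. Control spots and outlier spots (173 to 337 per array) were then dropped, and repeat arrays of a pair were averaged. Tests were run on the 25851 probes that some group of genotype and sex showed well above background in each of its arrays and in the channel of its RNA, and the brightest such probe represents a gene. Names came from RefSeq accessions for 26581 of 39429 probes. Ratios were tested with limma (eBayes after lmFit, both directions, Benjamini-Hochberg adjustment over 20576 genes, threshold 0.05). T2KO over T1KO came from a fit with 1 mean per group of pairs, in which male and female DKO/WT pairs gave the spread, and DKO over WT from the 4 pairs against 0. The fit of normexp without dim spots was chosen with values of these data known. The wrong-genotype sample entered no fit but was normalized with the rest. The fits were tested on simulated data. Each p-value rests on the spread from pair to pair of lines, and the number of arrays limits the precision.

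The 7 genes and the 15 gene lists were chosen with earlier results of these data known. The text names all 7 genes with every probe, list genes past limma's threshold, the nearest tested gene on either side, and the 5 genes with the highest Pearson correlation to the mean level of the 7 over 11 lines. List genes at no signal were named after their values were seen. Alternatives were the fit of normexp, the scanner ratios, the authors' table, median centring, no filter on dim probes, the mean of a gene's probes, leaving out pairs or arrays, a random block for pairs, an intensity trend, sex as a covariate, and another rule for flags.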

Additional observations from a re-analysis of the deposited data

Results flagged for a closer look

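Of 42 sets of 4 values (levels in WT, levels in DKO and DKO/WT ratios of 14 probes), 1 had a value far from the other 3, where chance gives about 1 in 20. The second Osta probe, A_52_P229981, read 7.76 on the log2 scale in WT 7, against 7.13 to 7.16 in the other 3 WT lines.

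The Cy5 channel of the T1KO 99 arrays holds the sample with the wrong genotype and entered no fit or test. The 5 probes that were dark in Cy3 had signal there on both arrays, above the 99th percentile of the negative control spots. The lower of both readings was 151 scanner units for Dsc3, 260 for Sult1d1, 167 for Krt78, 180 for Gpr35 and 172 for Ppp1r3a.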

How the results depend on the processing

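No direction of any of the 7 genes reversed in either comparison under the 13 to 15 alternatives run for each. The choice of the genes set the sign in DKO over WT, and a positive T2KO over T1KO ratio was largely fixed for 5 of them. Nothing is therefore read from the unchanged directions. With normexp on all spots the T2KO over T1KO ratios were 0.02 to 0.05 for all genes of the 7 but Fmr1nb, which had 0.44. With the ratios that the scanner wrote, the median DKO over WT log2 ratio of the 7 genes, 1.54, became 3.72. It was 0.94 with the mean of a gene's probes and ran from 1.45 to 1.53 with a pair left out. In the authors' deposited table it was 0.71 by gene (added after seeing the data). By listed probe the authors' deposited table gave 0.97, a median without Dsc3 and Sult1d1, which had no value in that setting. In DKO over WT, the 940 genes that passed became 365 with normexp on all spots, 537 and 570 with the authors' table by probe and by gene, and 1476 with pairs as a random block. They became 6699 with median centring, 92.5% of them rises against 62.3%, with the median of all genes at 0.20. Rises made up 75.7% with the scanner ratios and 51.8% with the random block. With a pair left out (range 0 to 0), an intensity trend (0) or sex as a covariate (0) no gene passed, with 3605 to 4864, 5475 and 5255 genes at an unadjusted p under 0.05. In T2KO over T1KO the random block gave 555 genes in place of 0, with 0 of the 7 among them, and the adjusted p of the 7 ran from 0.0702 to 1 over the alternatives. The share of probes in Cy5 alone was 4.41% with Cy5 on at least 3 of 6 DKO arrays, against 1.46%. No paired analysis was possible because each ratio already sets the lines of an array against each other, and the replicate numbers mark arrays. Signals near background limit what the ratios of 5 of the genes can show.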

Other observations

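In the authors' deposited table, which has 1 row per gene name, the rows of the genes with a dark second probe were listed under either probe. Its values followed the mean of a gene's probes more closely than the listed probe, so that they are not readings of the dark probes alone. By the normalized ratios, the mean DKO over WT ratio of the dark probe was -0.07 for Dsc3 and 0.05 for Sult1d1. The row of Dsc3 was listed under the dark probe A_66_P138055 with DKO over WT values of 0.71, 0.60, 0.73 and 0.80 in pairs 51/6, 61/92, 60/7 and 59/94 and a T2KO over T1KO value of 0.40, and that of Sult1d1 under the dark probe A_55_P2181542 with 0.78, 0.19, 0.86 and 0.50, and 0.62. The authors' deposited table gave Krt78 0.61, 0.76, 0.20 and 0.55, and 0.39, and Gpr35 0.16, 0.08, 0.51 and 0.42, and 0.19. For Ppp1r3a, with its 1 probe, the authors' deposited table had 1.33, 0.69, 1.20 and 0.66, and 0.81. Fmr1nb stood there at 0.55, 1.68, 0.77 and 1.29, and 1.07, and Osta at 1.49, 0.77, 0.94 and 1.41, and 0.32. For both, the order of the pairs in the authors' deposited table was that of the normalized ratios.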
